A study of Xenopus laevis with 12 samples.

Results

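The mRNAs examined here encode proteins of the RNA-protein particles that carry RNAs through the cytoplasm of the *Xenopus laevis* oocyte. They are *stau1.S* (gene20), *igf2bp3.L* (gene18830), *elavl1.L* (gene10263), *elavl1.S* (gene17598), *caprin1.L* (gene7819) and *caprin1.S* (gene9547), which are 6 of 51061 genes in the count files. They were chosen by name from the authors' deposited tables of enriched genes, of which the Staufen table lists 3 (*stau1.S*, *caprin1.L*, *caprin1.S*) and the hnRNPab table the other 3. The suffixes .L and .S mark homeologs, the pair of copies that genome duplication left of many frog genes. The homeologs *stau1.L* and *igf2bp3.S* carry no name in these tables and were not analysed here.

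RNA came from lysates of oocytes pooled over stages II and III, with no genotype or treatment labelled. L-bodies, the condensates of RNA and protein that hold localized mRNAs, had been enriched in the lysate by size exclusion chromatography. It was immunoprecipitated with antibody to Staufen, antibody to hnRNPab or control IgG, with 4 libraries for each antibody label, numbered 1 to 4, and sequenced as paired 150 bp reads. The labels do not say whether a number marks a frog or a preparation, so that p-values rest on a spread among libraries that may be only technical. Immunoprecipitation recovers RNA bound to the antibody's target, and a level is therefore the share of a transcript in the recovered RNA, not its abundance in the oocyte.

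In the vegetal transport pathway, proteins bind a localization element in the 3′ end of an mRNA, first in the nucleus and then in larger cytoplasmic particles, and motors carry the particles to the vegetal cortex. Staufen 1 is a double-stranded RNA-binding protein of the cytoplasmic particle. Igf2bp3, known in *Xenopus* as Vg1RBP or Vera, binds the localization element of the Vg1 mRNA. Elavl1, called ElrA in the frog and HuR in mammals, binds AU-rich and U-rich sequences and stabilizes its target mRNAs, and Caprin1, also called RNG105, is an RNA granule protein that in mammals binds G3BP1. The results concern the mRNAs of these proteins and not the proteins themselves.

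Gene counts per library ran from 14147584 to 22103431. Each of the 6 mRNAs passed the filter on low counts in the whole table, with between 524 and 10298 counts in a library, so that counting error (at most 0.063 as a log2 SD, for *stau1.S*) was below the spread between libraries of a group. The share of singly aligned reads outside annotated exons differed between groups without overlap, at 16.9% to 19.6% in libraries labelled IgG, 13.4% to 14.8% in those labelled Staufen and 11% to 12.9% in those labelled hnRNPab. Its part in the differences below was not tested. The oocyte marker *gdf9.L*, an oocyte-secreted growth factor, was the only gene of 8 on the oocyte list with a name here and was at 112.6 ± 12.6 CPM (SD, n = 4), 146 ± 7.53 CPM and 309 ± 49.3 CPM in libraries labelled IgG, Staufen and hnRNPab. Of 8 blood genes only *slc4a1.L*, the erythrocyte anion exchanger, had a name, at 28.7 ± 4.76, 31.1 ± 6.28 and 125 ± 26.6 CPM in the same order, and none of 14 follicle cell and 12 stromal and endothelial genes had one, so that the defining markers of these cells could not be read. Both *gdf9.L* and *slc4a1.L* are named only by the authors' deposited Staufen table. Of the 1978 tested genes that only this table lists, 83% were called higher and 0% lower with the hnRNPab than with the IgG label. The rise of both markers with the hnRNPab label is therefore no separate result. The part of other cells in the results was not tested.

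The antibody labels and the deposited tables do not match, which bears on every direction below. For the 448 tested genes in both tables, subtracting the authors' hnRNPab fold change from their Staufen fold change removes whatever control the tables share. In the authors' deposited tables this difference lay a median of 0.0148 and at most 0.0185 on the log2 scale from the difference between libraries labelled hnRNPab and libraries labelled IgG, whereas for Staufen minus hnRNPab as labelled the median gap was 0.545. No labelled difference came closer than a median of 0.468 to the authors' deposited Staufen table (hnRNPab minus IgG, 2426 genes) or 0.518 to the hnRNPab table (IgG minus hnRNPab, 1930 genes), and the control of the tables was not identified. In the difference between the tables, libraries labelled hnRNPab took the place of the Staufen table and libraries labelled IgG that of the hnRNPab table. Groups are therefore called by their labels throughout. Which antibody a label stands for, and whether the IgG label marks the control, was not settled.

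*stau1.S*, the mRNA of the Staufen 1 protein itself, was lowest in the libraries labelled IgG. Its level, in TMM-scaled CPM (read counts relative to library size), was 26.7, 28.6, 35.0 and 23.6 in libraries IgG 1 to 4, 47.2, 60.0, 67.4 and 54.9 in Staufen 1 to 4, and 49.7, 60.5, 53.0 and 44.4 in hnRNPab 1 to 4. Every library labelled Staufen or hnRNPab was above every library labelled IgG, and the ranges of the first 2 groups overlapped. The level was 2.02-fold higher with the Staufen label than with IgG (log2 1.01, SE 0.148, edgeR adjusted p = 0.00147) and 1.82-fold higher with the hnRNPab label (log2 0.87, SE 0.148, adjusted p = 0.000644). Between the Staufen and hnRNPab labels the log2 difference was 0.14 (95% interval -0.17 to 0.46, adjusted p = 0.515). The replicate numbers also split on this difference, with Staufen higher in 2 of 4 same-numbered pairs. With the replicate number as a block, the difference did not pass (log2 0.14, edgeR adjusted p = 0.0709). In that fit it passed without number 1 (0.21) or number 2 (0.19), at adjusted p 0.0168 to 0.0339. It did not pass without number 3 or number 4 (adjusted p up to 0.431). The gene was the only member for which the libraries labelled Staufen had the highest mean.

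*igf2bp3.L*, the mRNA of Vg1RBP, was lowest in the libraries labelled hnRNPab. It stood at 177, 178, 229 and 206 CPM in IgG 1 to 4, 164, 177, 222 and 186 CPM in Staufen 1 to 4, and 85.8, 83.0, 95.1 and 86.5 CPM in hnRNPab 1 to 4. The hnRNPab libraries lay far below all the others, and the IgG and Staufen libraries overlapped. The libraries labelled hnRNPab held 2.25-fold less than those labelled IgG (log2 -1.17, SE 0.114, edgeR adjusted p = 9.03e-06) and 2.14-fold less than those labelled Staufen (Staufen minus hnRNPab, log2 1.10, SE 0.113, adjusted p = 1.63e-05). Staufen against IgG gave a log2 difference of -0.08 (95% interval -0.32 to 0.17, adjusted p = 0.881; with the replicate number as a block, interval -0.19 to 0.03, adjusted p = 0.26). All 4 same-numbered pairs were lower with the Staufen label, by 0.006 to 0.148 on the log2 scale. Without library IgG 3 this difference was 0.0023, with no direction left.

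*elavl1.L*, one copy of the HuR gene, fell in order from IgG to Staufen to hnRNPab. Its level was 451, 538, 479 and 433 CPM in IgG 1 to 4, 374, 397, 368 and 296 CPM in Staufen 1 to 4, and 219.7, 241, 278 and 181 CPM in hnRNPab 1 to 4. No range overlapped another, so that the 3 groups formed 3 separate steps. The libraries labelled hnRNPab were 2.07-fold below those labelled IgG (log2 -1.05, SE 0.136, edgeR adjusted p = 8.49e-05), and those labelled Staufen were 1.56-fold above those labelled hnRNPab (log2 0.64, SE 0.135, adjusted p = 0.0029). The upper step, Staufen against IgG, was a log2 difference of -0.41 (SE 0.135, adjusted p = 0.098) and did not pass, but passed with the replicate number as a block (-0.41, SE 0.0588, adjusted p = 5.68e-07) and in DESeq2 (-0.41, adjusted p = 0.0366). It was lower with the Staufen label in all 4 same-numbered pairs.

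*elavl1.S*, the other copy, had a single step. It was at 109, 126, 154 and 163 CPM in IgG 1 to 4, 131, 118, 139 and 126 CPM in Staufen 1 to 4, and 58.2, 49.5, 63.2 and 58.1 CPM in hnRNPab 1 to 4. The Staufen libraries lay within the range of the IgG libraries, and the hnRNPab libraries lay below both. The level with the hnRNPab label was 2.40-fold lower than with IgG (log2 -1.27, SE 0.129, edgeR adjusted p = 1.34e-05), and the Staufen label exceeded it by 2.25-fold (log2 1.17, SE 0.129, adjusted p = 2.64e-05). Staufen against IgG was at -0.10 (95% interval -0.38 to 0.18, adjusted p = 0.848). The same-numbered pairs split, with Staufen higher in 1 of 4, and under the replicate block the sign turned to 0.0089 without replicate number 4, while without number 1 the difference was -0.20 and passed (adjusted p = 0.0101).

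*caprin1.L* ran the opposite way to *elavl1.L*, rising from IgG to Staufen to hnRNPab. It was at 162, 138, 135 and 125 CPM in IgG 1 to 4, 209, 198, 188 and 179 CPM in Staufen 1 to 4, and 403, 329, 333 and 384 CPM in hnRNPab 1 to 4. Again no range overlapped another. The rise from IgG to hnRNPab was 2.59-fold (log2 1.37, SE 0.103, edgeR adjusted p = 1.28e-06), the largest fold change among the 6 mRNAs in this comparison. Staufen exceeded IgG by 1.38-fold (log2 0.46, SE 0.102, adjusted p = 0.0147) and was below hnRNPab by 0.91 on the log2 scale (Staufen minus hnRNPab, log2 -0.91, SE 0.102, adjusted p = 3.05e-05). The call against IgG was lost without IgG 2, IgG 4 or Staufen 2 (adjusted p 0.0505 to 0.065, log2 0.41 to 0.46) and held with the replicate block (adjusted p = 2.93e-08).

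*caprin1.S* took the same order with more overlap. Its level was 229, 166, 183 and 158 CPM in IgG 1 to 4, 337, 259, 271 and 270.2 CPM in Staufen 1 to 4, and 441, 309.6, 364 and 371 CPM in hnRNPab 1 to 4. The IgG libraries were below all the others, whereas Staufen 1 lay above hnRNPab 2. The libraries labelled hnRNPab were 2.02-fold above those labelled IgG (log2 1.01, SE 0.143, edgeR adjusted p = 0.000156), and those labelled Staufen 1.55-fold above them (log2 0.63, SE 0.142, adjusted p = 0.0172). Without a block, the latter difference no longer passed on leaving out Staufen 1 or any IgG library but IgG 1 (log2 0.53 to 0.63, adjusted p 0.0515 to 0.0717). It held with the replicate block (adjusted p = 9.91e-12). Staufen against hnRNPab was at -0.39 (SE 0.141, adjusted p = 0.0547) and did not pass, but was lower with the Staufen label in all 4 same-numbered pairs and passed with the replicate block (-0.38, SE 0.0533, adjusted p = 1.1e-07), in DESeq2 (adjusted p = 0.0278) and without IgG 1, Staufen 1 or hnRNPab 2 (adjusted p 0.0253 to 0.0308).

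**Figure D1:**
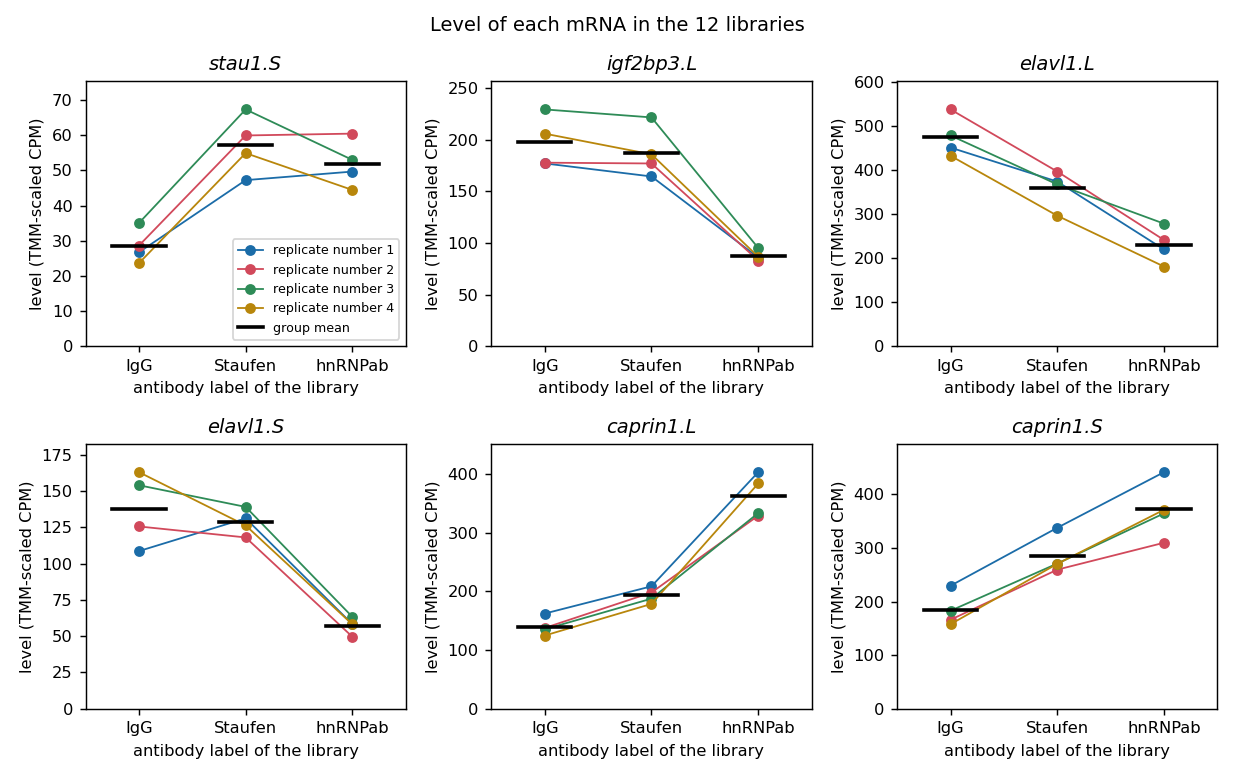
Level of each mRNA in TMM-scaled CPM (y axis, from 0, with its own scale in each panel) by the antibody label of the library (x axis), with 1 point per library, lines joining libraries of the same replicate number and black bars for group means of 4 libraries. *igf2bp3.L* and both *elavl1* copies are lowest with the hnRNPab label, both *caprin1* copies are highest there, and *stau1.S* is lowest with the IgG label (28.5 CPM on average).

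Counted over the 6 mRNAs, the comparison of hnRNPab with IgG labels called all 6, with 3 higher (*stau1.S* and both *caprin1* copies) and 3 lower (*igf2bp3.L* and both *elavl1* copies), and no pair of ranges overlapped. Over all 20803 tested genes, 33.7% were called in this comparison (16.3% higher and 17.4% lower) and 31.2% did not overlap. In Staufen against IgG 3 were called, all higher, where 7.78% of all tested genes were called (4.45% higher and 3.33% lower), and 4 did not overlap against 12.3% of all genes. In Staufen against hnRNPab 4 were called, 3 higher and 1 lower, with 32.9% of all tested genes called (16.5% higher and 16.3% lower), and 4 did not overlap against 31% of all genes. With the replicate block the called members were 4, 6 and 5, where 39.4%, 64.6% and 64.6% of all genes were called for Staufen against IgG, hnRNPab against IgG and Staufen against hnRNPab. The comparisons share libraries and are given side by side only.

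The median log2 difference over the 6 mRNAs was 0.19, -0.09 and 0.39 for Staufen against IgG, hnRNPab against IgG and Staufen against hnRNPab, against -0.01, -0.02 and 0.02 over all tested genes. In each comparison this median lay between the 3 members of the Staufen table and the 3 of the hnRNPab table, and describes neither set. The counts and medians are not independent of how the genes came to have names, because each member is named only through an authors' table of enriched genes. Among the 1978 tested genes that only the Staufen table lists, 83% were called higher with the hnRNPab than with the IgG label and 0% lower. Among the 1482 that only the hnRNPab table lists, 82.9% were called lower and 0% higher. The 3 members of each table followed that division. Against IgG, the Staufen label gave 8.14% higher and 1.31% lower among genes of the Staufen table alone, and all 3 members of that table were among those called higher. Among genes of the hnRNPab table alone it gave 1.15% higher and 21.1% lower, and none of the 3 members of that table was called without the block.

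**Figure D2:**
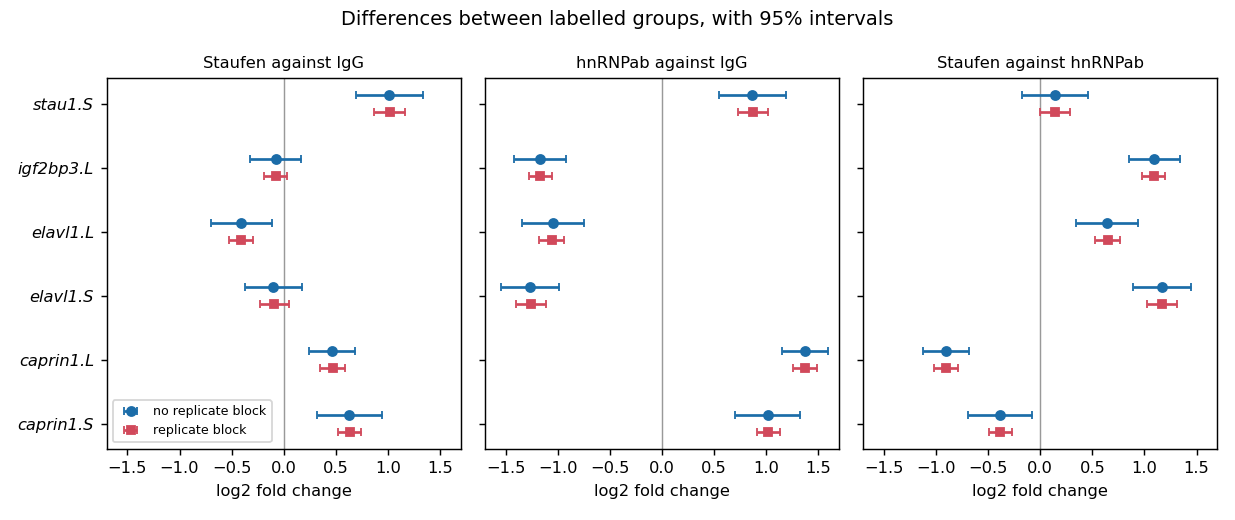
Log2 fold change (x axis) of each mRNA (y axis) in the 3 comparisons of labelled groups, without the replicate number as a block (blue circles) and with it (red squares). The 95% intervals are approximate and were built from the edgeR log2 fold change and its SE. The estimates of both fits nearly coincide and the blocked intervals are narrower, which takes *elavl1.L* in Staufen against IgG from adjusted p = 0.098 to 5.68e-07.

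In the authors' deposited Staufen table the log2 fold change was 0.98 for *stau1.S*, 0.89 for *caprin1.L* and 0.86 for *caprin1.S*, where the median of the table's 2457 genes was 1.24 and its lowest value 0.85. In the authors' deposited hnRNPab table it was 1.53 for *elavl1.L*, 1.16 for *elavl1.S* and 0.96 for *igf2bp3.L*, with a median of 1.18 over 1965 genes. Only *elavl1.L* was above its table's median. The authors' deposited adjusted p ran from 7.4e-07 for *elavl1.S* to 3.82e-05 for *caprin1.S*.

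Set beside the labelled differences, the deposited values behaved unlike each other. For *stau1.S* the authors' deposited value of 0.98 lay 0.03 from Staufen minus IgG as labelled. Over the 2426 tested genes of the authors' deposited Staufen table, however, this labelled difference lay a median of 1.26 from the deposited values. It was positive for 54.9% of these genes. For *elavl1.L* the authors' deposited value of 1.53 exceeded every labelled difference, of which IgG minus hnRNPab, at 1.05, was the highest. For *elavl1.S* and *igf2bp3.L* the authors' deposited values were closest to Staufen minus hnRNPab (gaps of 0.008 and 0.136), for *caprin1.L* to hnRNPab minus Staufen (0.0204) and for *caprin1.S* to hnRNPab minus IgG (0.152). Each is the nearest labelled difference picked for that gene. Over the 1930 tested genes of the hnRNPab table, Staufen minus hnRNPab lay a median of 0.809 from the deposited values. Over the 2426 of the Staufen table the median gap was 0.487 for hnRNPab minus Staufen and 0.468 for hnRNPab minus IgG. Within neither table was a single pair of labels closest for all 3 of its mRNAs. In Staufen minus IgG as labelled, the 3 mRNAs of the authors' deposited Staufen table were positive. They were also positive in hnRNPab minus IgG as labelled. In hnRNPab minus IgG as labelled, the 3 mRNAs of the authors' deposited hnRNPab table were negative.

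**Figure D3:**
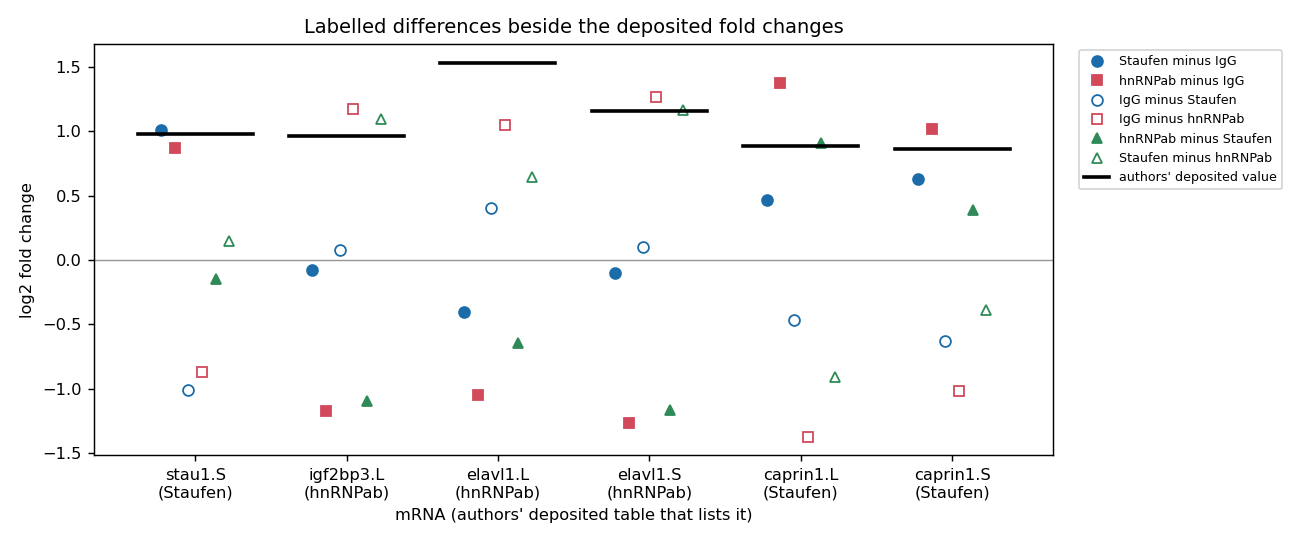
Log2 fold changes (y axis) for each mRNA (x axis, with the deposited table that lists it), as the authors' deposited value (black bar) and as the 6 directed differences between labelled groups (symbols; each filled symbol and the open symbol of the same shape are the same comparison in opposite directions). The black bar of *elavl1.L*, at 1.53, lies above every symbol, and the bars of the others lie within the range of the symbols.

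The copies of a gene were then compared within each library, where scaling between libraries cancels. The ratio of *elavl1.L* to *elavl1.S* counts was 4.16, 4.29, 3.11 and 2.66 in IgG 1 to 4, 2.85, 3.36, 2.64 and 2.35 in Staufen 1 to 4, and 3.77, 4.87, 4.40 and 3.11 in hnRNPab 1 to 4. It was lower with the Staufen label than with the IgG or hnRNPab label in all 4 same-numbered pairs, although the groups overlapped. On the log2 scale Staufen minus hnRNPab was -0.52 (two-sided exact permutation test, p = 0.0571, adjusted p = 0.114 over 6 tests), Staufen minus IgG -0.33 (p = 0.171, adjusted p = 0.206) and hnRNPab minus IgG 0.19 (p = 0.343, adjusted p = 0.343). Within same-numbered pairs these differences were -0.73 to -0.40, -0.54 to -0.18 and -0.14 to 0.50. The permutation test did not use the numbers, and an exact paired test over 4 numbers cannot go below p = 0.125. Whether the *elavl1* ratio differs between labels was therefore not decided.

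The ratio of *caprin1.L* to *caprin1.S* was 0.707, 0.830, 0.741 and 0.791 in IgG 1 to 4, 0.618, 0.764, 0.693 and 0.661 in Staufen 1 to 4, and 0.914, 1.06, 0.915 and 1.03 in hnRNPab 1 to 4. The hnRNPab libraries lay above all the others, near equal counts of both copies. The log2 ratio was higher with the hnRNPab label than with IgG by 0.35 (0.31 to 0.39 within the 4 same-numbered pairs), and Staufen minus hnRNPab was -0.52 (-0.65 to -0.40 within pairs). Each had a two-sided exact permutation p = 0.0286, below which 4 libraries against 4 cannot go, and adjusted p = 0.0857 over 6 tests. Neither passed, but a ratio can pass this adjustment only if most of the 6 tests reach that lowest p. Only these comparisons reached it, so that neither could pass, however large its difference. The adjusted test therefore cannot decide whether the *caprin1* ratio differs with the hnRNPab label. Staufen minus IgG was -0.17 (exact p = 0.114, adjusted p = 0.171), with all 4 pairs lower. Reads from near-identical copies can be assigned to the wrong homeolog, which makes these ratios uncertain, and a ratio of counts also depends on the lengths of the copies, which were not used here.

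**Figure D4:**
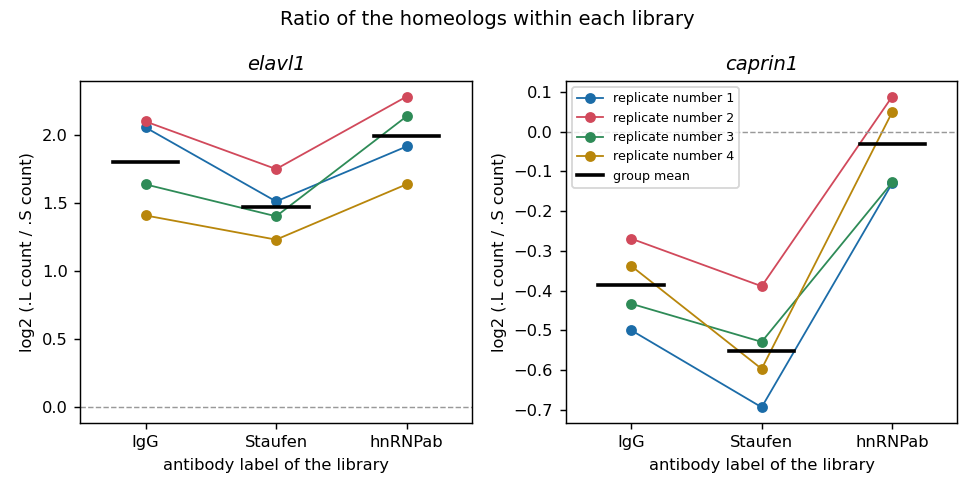
Log2 ratio of .L to .S counts (y axis) for *elavl1* (left) and *caprin1* (right) by antibody label (x axis), with 1 point per library, lines joining the same replicate number, black bars for group means of 4 libraries and a dashed line at equal counts. For *caprin1* the 4 hnRNPab libraries lie at -0.13 to 0.09, above all IgG and Staufen libraries, and for *elavl1* every line dips at the Staufen label.

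With the counts of both copies added, an alternative chosen after seeing the data, *elavl1* was at 613, 487 and 287 CPM on average and *caprin1* at 324, 478 and 734 CPM in libraries labelled IgG, Staufen and hnRNPab. The sum does not depend on how reads were split between the copies. Summed *caprin1* was 0.56 higher on the log2 scale with the Staufen than with the IgG label (SE 0.121, edgeR adjusted p = 0.0134) and 1.18 higher with the hnRNPab label (SE 0.122, adjusted p = 1.47e-05), and Staufen minus hnRNPab was -0.62 (SE 0.121, adjusted p = 0.00172). Summed *elavl1* was lower with the hnRNPab label than with IgG (log2 -1.09, SE 0.113, adjusted p = 1.47e-05), and Staufen minus IgG, at -0.33, did not pass (SE 0.112, adjusted p = 0.104; 1.15e-05 with the replicate block).

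Replicate numbers carried a smaller part of the variation than the labels. The antibody label accounted for 84.4% (*caprin1.S*) to 95.9% (*caprin1.L*) of the sum of squares of log2 CPM over the 12 libraries, and the replicate number for 2.68% (*caprin1.L*) to 14% (*caprin1.S*). Over all tested genes the medians were 40.9% for the label and 43.5% for the number. The members and all tested genes are not like sets here, because each member is named only through an authors' table of enriched genes. All 6 mRNAs nevertheless differed between numbers once the label was accounted for (edgeR adjusted p from 2.78e-07 for *caprin1.S* to 0.00441 for *caprin1.L*), as did 81.3% of all tested genes.

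The number that stood apart was not the same for each mRNA. Both *caprin1* copies were highest in number 1, by 0.28 for *caprin1.S* and 0.16 for *caprin1.L* above the group means on the log2 scale, and without number 1 neither differed between numbers (adjusted p = 0.133 and 0.925). Number 4 was lowest for *elavl1.L*, by -0.24, and without it the adjusted p was 0.0787. Number 3 was highest for *igf2bp3.L*, by 0.20, and without it the adjusted p was 0.0905. The *elavl1* copies went apart in number 4, at -0.24 for *elavl1.L* and 0.09 for *elavl1.S*, and in number 2, at 0.14 and -0.15.

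**Figure D5:**
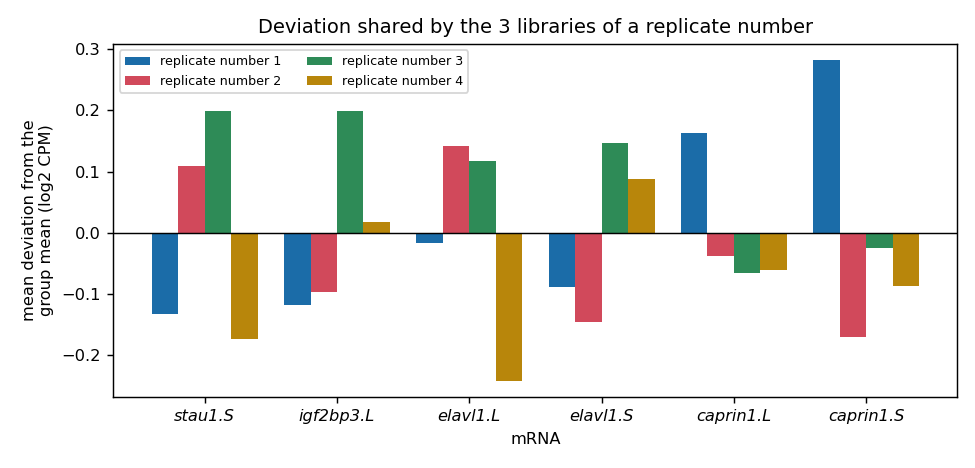
Mean deviation of the 3 libraries of each replicate number from their group means in log2 CPM (y axis, bars from 0) for each mRNA (x axis), with 1 colour for each of the 4 replicate numbers. Both *caprin1* copies are highest in number 1, and number 4 is lowest for *elavl1.L* (-0.24) but above 0 for *elavl1.S* (0.09).

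Other genes of transport particles were read from lists of 25 symbols of transport partners and 23 symbols of granule partners, of which the tables name 7 and 5 genes. Of the transport partners none passed in Staufen against IgG, where 7.78% of all tested genes were called. In hnRNPab against IgG 2 were higher and 5 lower, where 33.7% of all tested genes were called (16.3% higher and 17.4% lower). The split is again the division between the tables (2 in the Staufen table, 5 in the hnRNPab table). The 2 were *khsrp.L*, encoding a KH-domain protein that binds AU-rich elements (log2 0.94, SE 0.133, edgeR adjusted p = 0.000166), and *syncrip.L*, an hnRNP-like protein of mRNA transport (0.70, SE 0.103, adjusted p = 0.000226). The lower ones were *ptbp3.S* (-1.34) and *ptbp3.L* (-0.91), paralogs of the splicing and transport factor Ptbp1, *purb.L* (-0.96), a single-stranded nucleic acid-binding protein, and *ddx6.L* (-0.92) and *ddx6.S* (-0.55), the P-body helicase.

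In Staufen against hnRNPab 4 transport partners were higher and 2 lower, where 32.9% of all tested genes were called (16.5% higher and 16.3% lower). Here *purb.L* did not pass (log2 0.63, edgeR adjusted p = 0.124, and 6.16e-10 with the replicate block). With the replicate block, Staufen against IgG called 2 of the 7 higher, *ddx6.L* (0.42) and *khsrp.L* (0.22), and 3 lower, *ptbp3.L* (-0.36), *purb.L* (-0.33) and *ptbp3.S* (-0.19), where 39.4% of all tested genes were called (19% higher and 20.5% lower). The level of *ddx6.L* was highest with the Staufen label, at 263 ± 51.0 CPM (SD, n = 4) against 196 ± 31.6 with IgG and 103 ± 19.8 with hnRNPab.

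Of the 5 granule partners none passed in Staufen against IgG, where 7.78% of all tested genes were called. The block called *ythdf2.S* higher (0.17) and *nufip2.L* lower (-0.40) there, where 39.4% of all tested genes were called. In hnRNPab against IgG 3 were higher, *dcp1b.L*, a decapping cofactor (log2 1.42), *pabpc4.L*, a poly(A)-binding protein (1.23), and *ythdf2.S*, a reader of methylated adenosine in mRNA (0.95), and 2 were lower, *nufip2.L*, an RNA-binding protein (-0.93), and *ythdf3.L* (-0.33), a paralog of Ythdf2. This is also the division between the tables (3 in the Staufen table, 2 in the hnRNPab table), and 33.7% of all tested genes were called in this comparison. In Staufen against hnRNPab 3 were lower and 1 higher, *nufip2.L* (0.53), where 32.9% of all tested genes were called (16.5% higher and 16.3% lower). Here *ythdf3.L* did not pass (0.23, edgeR adjusted p = 0.0873, and 0.000178 with the block). The median log2 difference in hnRNPab against IgG was -0.91 over the 7 transport partners and 0.95 over the 5 granule partners, against -0.02 over all tested genes. Both lists hold genes of either direction, and each median takes the sign of the table that names more of the list, so that these values do not show that the lists differ.

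The genes whose pattern was most like that of a member were taken from 2599 named genes with a mean of at least 5 CPM, as the 2 with the highest Pearson r of log2 CPM over the 12 libraries. For *stau1.S* they were *nelfa.L* (r = 0.958) and *zdhhc5.L* (0.938), for *caprin1.L* *gna11.S* (0.992) and *mapkapk2.S* (0.990), and for *caprin1.S* *dcaf12.L* (0.992) and *mtpn.L* (0.974). All of these are named by the authors' deposited Staufen table. For *igf2bp3.L* the nearest was *c2orf69.S* (0.994). For *elavl1.L* they were *rxra.S* (0.977) and *foxn2.S* (0.974), and for *elavl1.S* *c6orf106.S* (0.986) and *c2orf69.S* (0.982). These genes are all named by the authors' deposited hnRNPab table. Every candidate has its name from the deposited tables, whose genes mostly divide by direction in hnRNPab against IgG. A table shared with the member is therefore no separate result. The libraries form 3 groups, so that these values mostly describe likeness between group levels. The gene nearest to *stau1.S*, *nelfa.L*, a subunit of the negative elongation factor, stood at 109 CPM with IgG, 175 with Staufen and 166 with hnRNPab.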

How the data were processed

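Counts per gene were deposited by the authors as whole numbers without normalization. STAR 2.6.1b, HTSeq 0.9.1 and edgeR appear in the submitters' processing notes, whereas no genome build, annotation or strand setting is given in the sources used here. Per the file headers, the authors' 2 deposited tables give for each gene a log2 fold change, its log2 CPM, the p-value with and without adjustment and the F value, a score of the test, and are the only source of gene names. Lines for reads outside genes, shared between genes (0.521% to 0.791% of singly aligned reads) or aligned more than once stayed out of library sizes. The tests used edgeR 4.0.16 (R 4.3.3; TMM, filterByExpr, 20803 of 51061 genes, a fit over 12 libraries with the label as the only term, quasi-likelihood F test, Benjamini-Hochberg adjustment over all tested genes at 0.05). SE is the log2 fold change over the square root of F. The quasi-likelihood fit draws the spread of each gene towards that of all tested genes. Its p-values therefore do not rest on the libraries of a single mRNA alone, and in the blocked fit the shared spread weighs more.

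Libraries with the same replicate number deviated together (r across genes of their deviations from the group means, 0.774 to 0.861 over 12 pairs), so that the numbers pair the libraries. For other numbers r was -0.502 to -0.0403. Deviations from a group mean cancel within the group, which makes these values negative where same-numbered libraries go together. They are therefore no separate support for the pairing. The blocked fit is given where it changes a call. The replicate number was tested in that fit. In counts simulated without differences between replicate numbers, for Staufen against IgG over 20803 genes, the fit without the block recovered 54% of 100 genes changed by a log2 of 1 and 93% of 100 changed by 2, and 7.55% of its calls were false. The gain from the block in paired libraries was not simulated. Alternatives were DESeq2 1.42.0, upper-quartile scaling, no filter, the compared groups alone, the block, leaving out libraries or numbers, and summed homeologs. A count of 0 would allow up to 3 counts, or 0.135 to 0.208 CPM, for counting error only. The members and lists were chosen with earlier results of these data known. Named were all members, all named genes of the lists and the 2 genes most like each member, of which 1 is not reported here. A gene table of assembly Xenopus_laevis_v10.1 served only to count genes of lists. No sequences were used.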

Additional observations from a re-analysis of the deposited data

Results flagged for a closer look

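The library Staufen 1 stood apart for *caprin1.S*, at 337 CPM, with a gap to the next library of 85.4% of the range of the 4 libraries labelled Staufen. It was the only one flagged among 24 groups of 4 libraries examined, where chance flags about 1 in 20. Replicate number 1 was also the highest for *caprin1.S* in the libraries labelled IgG (229 CPM) and hnRNPab (441 CPM). Without Staufen 1, the call of *caprin1.S* in Staufen against IgG was lost in the fit without the replicate block. In the blocked fit the call held without replicate number 1 (log2 0.66, edgeR adjusted p = 3.12e-10).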

How the results depend on the processing

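Over 22 alternatives per comparison, all 6 mRNAs kept direction and call in hnRNPab against IgG, as did *stau1.S* in Staufen against IgG (log2 0.92 to 1.13) and *igf2bp3.L*, both *elavl1* copies and *caprin1.L* in Staufen against hnRNPab. Not all 22 are separate checks. Leaving out a library of the group not compared could hardly move a log2 difference, and summing homeologs left the counts of *stau1.S* and *igf2bp3.L* unchanged. Genes of the deposited tables that name the members mostly divide by direction in hnRNPab against IgG. A direction kept there is therefore no separate support. The cause of the changes below was not tested. With the replicate block, genes called higher and lower numbered 3944 and 4259 in Staufen against IgG, 6505 and 6937 in hnRNPab against IgG and 6880 and 6551 in Staufen against hnRNPab, against 925 and 693, 3388 and 3617, and 3436 and 3401 without it. The block changed 2 member calls, *elavl1.L* in Staufen against IgG (-0.41) and *caprin1.S* in Staufen against hnRNPab (-0.38), and no other. DESeq2 also called both (-0.41 and -0.39), and summed *caprin1* gave -0.62. Genes lower in Staufen against IgG were 442 without a filter and 1233 in DESeq2.

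Leaving out 1 library, or 1 replicate number under the block, gave these ranges. In Staufen against IgG the log2 differences were -0.17 to 0.0023 for *igf2bp3.L*, -0.46 to -0.32 for *elavl1.L*, -0.20 to 0.0089 for *elavl1.S*, 0.41 to 0.55 for *caprin1.L* and 0.53 to 0.76 for *caprin1.S*. In Staufen against hnRNPab they were 0.052 to 0.22 for *stau1.S* and -0.49 to -0.30 for *caprin1.S*. Genes called higher numbered 628 to 3788 and lower 383 to 3943 in Staufen against IgG, 2822 to 6302 and 2976 to 6539 in hnRNPab against IgG, and 2868 to 6557 and 2856 to 6232 in Staufen against hnRNPab, with each upper end from a blocked fit. Without the block, leaving out IgG 2, IgG 3 or Staufen 4 took the genes lower in Staufen against IgG from 693 to 383, 421 or 457. The adjusted p between replicate numbers ran from 1.02e-05 to 0.0905 for *igf2bp3.L*, 1.04e-05 to 0.0787 for *elavl1.L*, 0.000208 to 0.925 for *caprin1.L* and 4.84e-09 to 0.133 for *caprin1.S*.

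No alternative made a homeolog ratio pass. With a library left out, the smaller group has too few permutations for any ratio to pass after adjustment. The exact paired sign-flip test over 4 numbers cannot go below p = 0.125. These alternatives therefore say nothing of stability. Depth did not limit the members, which had at least 524 counts in each library. The limits are the 4 libraries in each group, the unsettled labels and reads shared between homeologs.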
